A study of Mus musculus with 4 samples.

Results

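The major urinary protein (Mup) cluster on mouse chromosome 4, taken as chr4:59900001-62300000 (mm10), was described in whole-genome bisulfite data of male germ cells. A 20-kb window counted as measured when at least 10 of its CpGs had a methylation value in all 4 samples. In the cluster 82 of 120 windows met this condition, among 120249 of 126073 windows over the whole table. The interval was chosen by measured values, namely its missing values and its share of measured windows, so those quantities are given as a description, without a test. It holds 22 annotated Mup genes and 22 symbols of the Mup-ps kind, of which 19 are annotated as pseudogenes, 2 (Mup-ps12 and Mup-ps16) as protein coding and 1 (Mup-ps15) as a long non-coding RNA. Of the Mup genes, Mup4, Mup18, Mup5, Mup20 and Mup3 are given in full.

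Germ cells came from testes of 21-day-old mice. There were 2 knockout samples (Np95fl/fl:Stra8-Cre) and 2 control samples (Np95fl/fl). All 4 carry the floxed Np95 gene, and only the knockouts carry Stra8-Cre, a Cre recombinase driven by a promoter that is active in male germ cells before meiosis, so a cell that escaped recombination would still have an intact gene. Np95, also called Uhrf1, is needed to copy CpG methylation to the new strand when DNA is replicated, and the study asked how much methylation spermatocytes lose without it. The sequencing method was PBAT (post-bisulfite adaptor tagging): DNA is converted with bisulfite first and receives its adaptors afterwards. Whether replicates are separate animals is not stated, and p-values therefore measure the spread between the samples at hand, which may be technical. For most windows and gene spans that spread was pooled over regions of similar level. In bulk DNA an intermediate level in every cell and a mixture of high and low cells cannot be told apart.

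Major urinary proteins are small lipocalins, barrel-shaped carriers of hydrophobic molecules. Most are made in the liver under the control of growth hormone and sex, pass into urine, and release volatile pheromones slowly from scent marks. Some act as signals themselves, and a few are made in nasal or salivary glands instead. The genes are recent tandem duplicates, and the copies in the middle of the mouse cluster are almost identical to each other, which makes it hard to place short reads in one copy. They are not known for a role in male germ cells.

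The labelled cell type can be checked only through methylation, since no expression was measured. At the gene starts of 8 germ cell genes the level lay between 3.01% and 26.3% in knockout samples and between 0.768% and 8.35% in control samples. Both knockouts lay above both controls at 7 of the 8, and the groups overlapped at Ddx4. The share of all gene starts with this order is not given, nor that of other starts with low levels. The count can therefore not be read as particular to germ cell genes. This order runs opposite to the lower mean level over the whole table, and its part in the results was not tested. Of the 37230584 cytosines in the table, 77.9% and 79.3% had a value in knockout replicates 1 and 2, and 79.97% and 79.3% in control replicates 1 and 2. The mean level over cytosines valued in all samples was 38.1% and 38.4% in the knockouts, against 69.1% and 72.9% in the controls. Read depth per value is unknown, and levels are given without confidence intervals.

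RefSeq (GRCm38.p6, the same build as mm10) gives a window of 250 bases before to 50 bases after the gene start for 14 of the 22 Mup genes, and the Mup5 and Mup20 windows are not used here. The next lines show 7 of them, 5′ to 3′ on the gene's strand, with each CG in capitals. Mup4, Mup6 and Mup3 lie near the ends of the cluster. Mup2, Mup18, Mup15 and Mup19 lie in the central array, and Mup15 and Mup19 are shown because the table lists none of their CpGs.

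Mup4, chr4:59960618-59960917, minus strand: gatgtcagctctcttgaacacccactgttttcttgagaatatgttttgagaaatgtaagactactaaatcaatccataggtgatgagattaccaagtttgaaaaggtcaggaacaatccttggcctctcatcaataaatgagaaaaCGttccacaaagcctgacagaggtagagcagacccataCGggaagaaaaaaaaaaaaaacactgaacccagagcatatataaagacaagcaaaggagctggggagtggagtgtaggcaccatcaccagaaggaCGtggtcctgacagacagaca
Mup6, chr4:60003231-60003530, plus strand: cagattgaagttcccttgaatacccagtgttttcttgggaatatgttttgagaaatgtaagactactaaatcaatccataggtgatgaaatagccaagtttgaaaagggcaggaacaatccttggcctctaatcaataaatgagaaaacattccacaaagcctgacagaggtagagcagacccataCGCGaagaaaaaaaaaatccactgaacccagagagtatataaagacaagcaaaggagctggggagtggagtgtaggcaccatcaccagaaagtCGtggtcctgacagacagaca
Mup3, chr4:62087268-62087567, minus strand: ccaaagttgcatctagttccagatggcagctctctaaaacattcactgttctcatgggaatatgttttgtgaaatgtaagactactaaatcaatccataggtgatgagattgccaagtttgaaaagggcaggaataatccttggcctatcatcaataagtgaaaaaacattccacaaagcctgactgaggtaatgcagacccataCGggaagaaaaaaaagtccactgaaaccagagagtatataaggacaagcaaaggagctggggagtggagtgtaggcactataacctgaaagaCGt
Mup2, chr4:60139807-60140106, minus strand: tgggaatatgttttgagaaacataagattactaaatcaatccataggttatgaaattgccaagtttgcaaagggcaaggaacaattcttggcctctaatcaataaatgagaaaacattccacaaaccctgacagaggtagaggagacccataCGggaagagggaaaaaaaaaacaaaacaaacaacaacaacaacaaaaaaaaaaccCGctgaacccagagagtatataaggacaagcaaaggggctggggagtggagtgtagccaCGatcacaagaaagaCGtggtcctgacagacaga
Mup18, chr4:61674045-61674344, minus strand: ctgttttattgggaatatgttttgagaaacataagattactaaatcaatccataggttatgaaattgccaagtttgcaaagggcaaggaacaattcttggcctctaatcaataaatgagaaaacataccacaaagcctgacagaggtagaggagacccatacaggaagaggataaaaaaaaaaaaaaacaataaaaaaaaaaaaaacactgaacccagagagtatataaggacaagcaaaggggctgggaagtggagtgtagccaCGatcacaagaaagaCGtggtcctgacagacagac
Mup15, chr4:61439655-61439954, minus strand: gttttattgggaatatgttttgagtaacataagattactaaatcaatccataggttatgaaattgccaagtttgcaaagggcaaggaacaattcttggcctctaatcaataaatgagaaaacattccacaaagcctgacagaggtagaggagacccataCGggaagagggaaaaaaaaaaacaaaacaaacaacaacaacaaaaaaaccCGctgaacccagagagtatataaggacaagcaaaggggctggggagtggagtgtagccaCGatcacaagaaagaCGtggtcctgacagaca
Mup19, chr4:61782175-61782474, minus strand: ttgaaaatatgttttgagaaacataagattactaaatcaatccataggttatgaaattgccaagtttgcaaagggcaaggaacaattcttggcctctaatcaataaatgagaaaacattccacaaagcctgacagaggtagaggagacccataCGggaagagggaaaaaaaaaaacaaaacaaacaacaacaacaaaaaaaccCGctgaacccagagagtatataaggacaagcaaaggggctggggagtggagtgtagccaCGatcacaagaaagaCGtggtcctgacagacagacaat

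The promoters show how alike the copies are. Each of the 10 array promoters with a sequence was between 95.2% and 99.0% identical to its nearest relative in the cluster, over the bases that the pair of windows share. The 4 outer promoters (Mup4, Mup6, Mup3 and Mup21) were between 92.3% and 93.3% identical to theirs. Mup15 and Mup19, printed above, were 99.0% identical over 294 shared columns. The 14 letters around a CG that most Mup windows share, CCCATACGGGAAGA, searched on both strands, stand in 11 of the 14 Mup windows and in no other window among 31879 in the RefSeq table (0.035% of all). The run TATATAAG, searched on both strands and not overlapping the first, stands in 11 of the 14, against 320 windows over all genes (1.00%). The 320 include the Mup windows. The first run was named from these windows and the second is spelled as in them, so neither count is a test. Most of the windows are also near copies of each other, so their matches are not independent. At Mup7 the first run lies 36 bases after the annotated start, and at the other genes before it. Matches of letters are a description and not evidence of a bound factor.

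The table listed few of the CpGs of the array promoters. Of their 58 CpG cytosines, counted on both strands, 28 were listed (48.3%) and 7 had a value in all 4 samples (12.1%). At the 4 outer promoters all 20 cytosines were listed and 19 had a value in all samples. Over all RefSeq promoters 98.6% of CpG cytosines were listed and 82.5% had a value in all samples. At Mup15 and Mup19 the count was 0 of 8 cytosines at each, and at Mup2 it was 3 of 8. Mup17, 98.9% identical to Mup11 over the shared columns, had 6 of 8 listed and 1 with a value in all samples. The part of sequence likeness in the missing values was not tested.

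**Figure D1:**
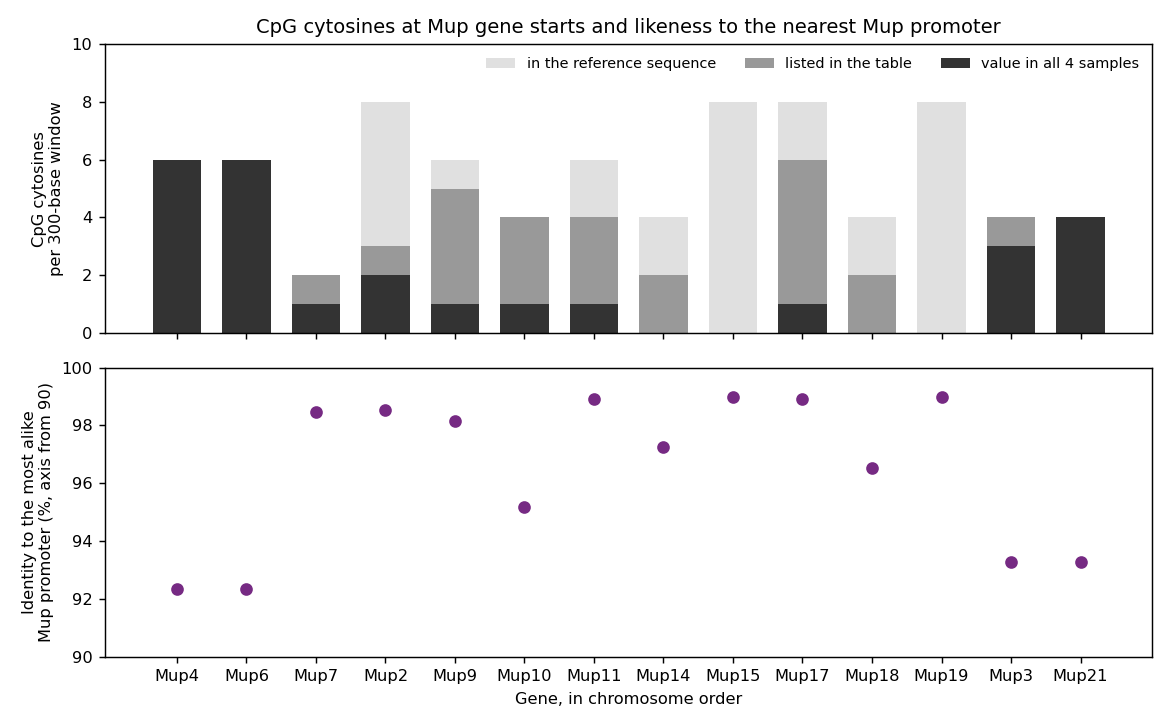
Upper panel: number of CpG cytosines in the 300-base promoter window of each of 14 Mup genes in chromosome order, with those in the reference sequence in light grey, those listed in the table in mid grey and those with a value in all 4 samples in black. Lower panel: identity of each promoter to the most alike Mup promoter (%, axis from 90), with array promoters from 95.2% upwards and the 4 outer promoters at or below 93.3%.

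Few cytosines were also listed per kb in the cluster as a whole, where the CpGs of the reference sequence were not counted. The table listed 14290 cytosines of 8170 CpGs in the cluster, which is 5.95 per kb, against 17.9 per kb in the 2 Mb on the left and 18.5 per kb in the 2 Mb on the right. Windows of the cluster held a median of 80 listed cytosines, against 343 in the flanks, and 16 cluster windows held none. The longest stretch without a listed cytosine spanned 301 kb, between positions 60849333 and 61150610, and the next ones spanned 51.6 kb and 51.1 kb. No annotated gene lies wholly inside any of these 3 stretches. Whether they are stretches without known sequence or stretches where reads could not be placed was not tested.

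Cytosines that were listed also lacked values more often than in the flanks. In the cluster 70.3% and 71.7% had a value in knockout replicates 1 and 2, and 72.8% and 73.5% in control replicates 1 and 2. In the flanks these shares were 82.7% and 83.5% in the knockouts, against 84.2% and 83.6% in the controls. All 4 samples were thus lower in the cluster than in the flanks, and the knockouts had fewer values than the controls in both places. In the cluster the knockouts lacked 4246 and 4046 of the 14290 cytosines, against 3890 and 3789 in the controls. In the flanks they lacked 12563 and 12036 of 72810, against 11527 and 11956 in the controls. Cytosines missing in a single sample only numbered 636 and 564 for the knockouts in the cluster, against 464 and 458 for the controls. The flanks had 3156 and 2746 for the knockouts, against 2533 and 2696 for the controls.

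A value in all 4 samples was present for 53.4% of cluster cytosines, against 66.6% in the flanks (60.1% on the left, 72.9% on the right) and 60.2% in the whole table. No sample had a value at 11.6% of cluster cytosines, against 4.49% in the flanks and 6.50% in the whole table. Both cytosines of a CpG were listed for 74.9% of cluster CpGs, against 96.0% in the flanks and 93.2% in the whole table. The share of windows kept was 68.3% in the cluster, while all 100 windows on the left and all 100 on the right were kept. Windows just inside and outside the limit can be seen at one place in the array. That at chr4:60540001-60560000, with 10 CpGs, had 44.1% and 53.1% in the knockouts against 80.2% and 86.0% in the controls. The window beside it, chr4:60520001-60540000, with 9 CpGs and not kept, had 32.7% and 39.9% in the knockouts against 79.1% and 86.0% in the controls.

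The loss of windows was greatest in the array of near-identical copies, from the window of Mup7 to that of Mup19, an interval drawn after the values were seen. The array holds 16 of the 22 Mup genes. It had 3.51 listed cytosines per kb, a value in all samples at 40.5% of them, and 50 of 87 windows kept (57.5%). All 16 windows without a listed cytosine lie in the array and count among the 87. Most of them fall in the 301-kb stretch, which encloses no annotated gene, so density and kept share there do not describe gene copies alone. The cluster left of the array had 13.7 cytosines per kb and kept 8 of 8 windows, and the cluster right of it had 11.98 per kb and kept 24 of 25. Values were present in all samples at 61.5% and 63.5% of cytosines in those outer stretches, within the range of the 2 flanks. In the array, the share with a value was 57.6% and 60.2% in the knockouts, against 62.2% and 63.9% in the controls.

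**Figure D2:**
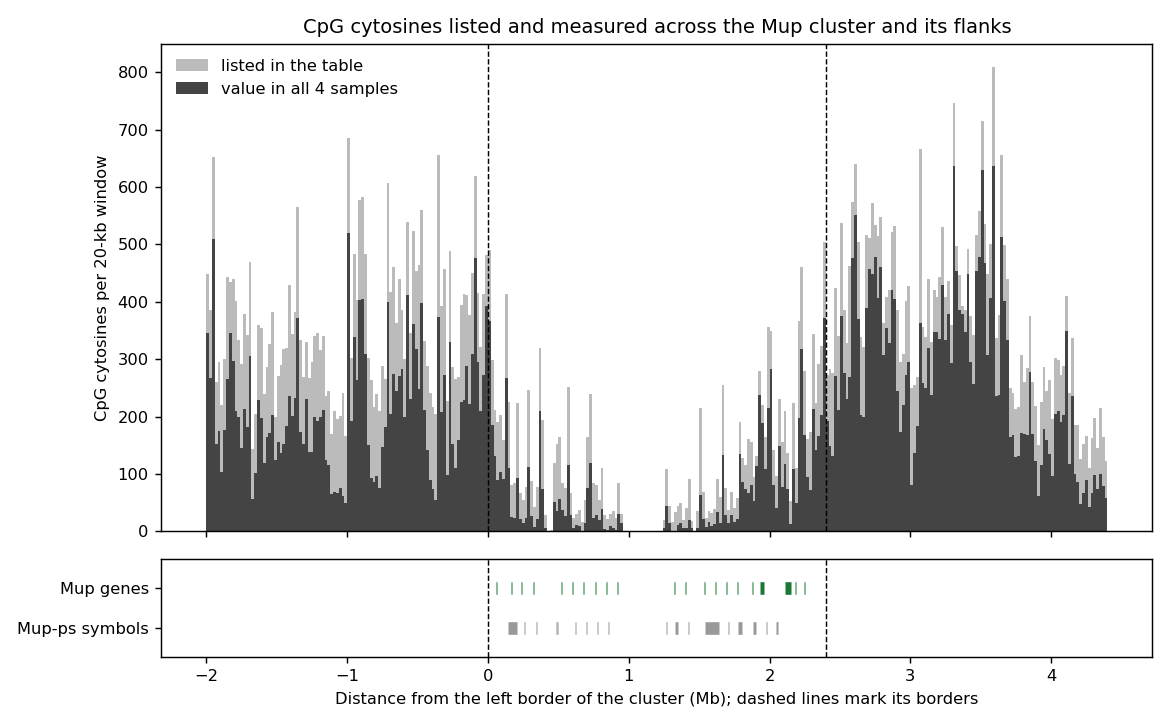
CpG cytosines per 20-kb window across the cluster and 2 Mb on both sides, by distance from the left border of the cluster (Mb), with listed cytosines in light grey and those with a value in all 4 samples in dark grey. The lower strip marks Mup genes and Mup-ps symbols. Counts drop between the dashed borders, most in the middle, where a stretch of 301 kb is empty.

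The cluster was also set against the rest of the autosomes, in a ranking by values that had helped to choose it. A low rank for windows kept and cytosines listed was therefore foreseeable from the choice and is given as a description. Of 990 other intervals of the same 2.4-Mb length, 7 kept a lower share of windows and 8 had fewer listed cytosines, with a median of 35192.5. In 387 of them, by contrast, a lower share of cytosines had values in all samples. Another tandem cluster was likewise below the Mup flanks in listed cytosines per kb and in the share with values, but kept more windows. The Mas-related receptor genes on chromosome 7, 16 genes of sensory neuron receptors, had 7.60 listed cytosines per kb and kept 73 of 74 windows, although 41.9% of their cytosines had values in all samples. There the values were rarer in the knockouts, at 59.4% and 61.5%, against 76.3% and 74.5% in the controls. The glutathione transferase mu genes on chromosome 3, 7 genes of detoxifying enzymes, had 19.4 cytosines per kb, kept 9 of 9 windows and had values in all samples at 71.5% of cytosines.

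Where it was measured, the cluster was less methylated in the knockouts. The mean level over its 7626 cytosines valued in all samples was 42.6% and 42.7% in knockout replicates 1 and 2, against 70.3% and 74.6% in control replicates 1 and 2. Both knockouts were far below both controls and close to each other. The means were 42.7% ± 0.078 in knockouts and 72.4% ± 3.06 in controls (SD, n = 2 each), a difference of -29.8 points with 58.89% of the level retained. With 2 samples a group, p could not fall below 0.333, which is what the exact permutation test gave (two-sided).

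The same was seen in the flanks. Their mean was 39.2% and 39.6% in the knockouts, against 71.5% and 75.6% in the controls, a difference of -34.1 points with 53.6% retained. The cluster minus its flanks was 3.37 and 3.12 points in the knockouts, against -1.21 and -1.02 points in the controls. The cluster was thus above its flanks in both knockouts and below them in both controls. This difference of differences was 4.36 points (exact permutation p = 0.333, two-sided, the smallest possible). It was 1.54 points against the left flank alone, 6.60 points against the right flank alone, and 9.90 points when medians over windows were compared, alternatives chosen after seeing the data. Its size therefore depended on which flank and which average was used, while its sign did not.

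By window, the test across the whole table (limma with Benjamini-Hochberg adjustment, with calls at an adjusted p below 0.05 where levels differed by 10 points or more) called 81 of the 82 measured cluster windows lower in the knockouts. Over the whole table it called 98.4% of windows lower, so the count in the cluster is that of the genome at large. It called 0 windows higher in the cluster, and 0 were higher at an unadjusted p under 0.05. Both knockouts lay below both controls in 82 of 82 windows, against 99.9% of all windows. The window not called, at chr4:62220001-62240000, had 23.8% and 26.2% in the knockouts and 32.5% and 36.3% in the controls. Its difference of -9.38 points was below the minimum of 10 points (adjusted p = 2.48e-08 by limma). For 99.5% of windows limma used a spread pooled over windows of similar level, and tested on each window's own spread the calls numbered 74 of 82, against 97.6% of all windows under that test.

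By the median over windows, cluster and flanks stood further apart in the controls than in the knockouts, which is not so by the mean over cytosines given above. The median window had 44.3% and 43.7% in knockout replicates 1 and 2, against 73.7% and 78.2% in control replicates 1 and 2. In the flanks the medians were 43.2% and 44.2% in the knockouts, against 83.1% and 88.0% in the controls. The cluster median minus the flank median was 1.08 and -0.50 points in the knockouts, against -9.42 and -9.80 points in the controls. None of the 82 cluster windows had a control mean of 90% or more, against 35 of 200 in the flanks, and 58 of the 82 were under 80%, against 70 of the 200. The median difference over cluster windows was -30.6 points (range -47.1 to -9.38) with 57.7% retained, against -39.0 points with 53.3% retained in the flanks and -37.7 points with 53.4% retained over all windows.

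**Figure D3:**
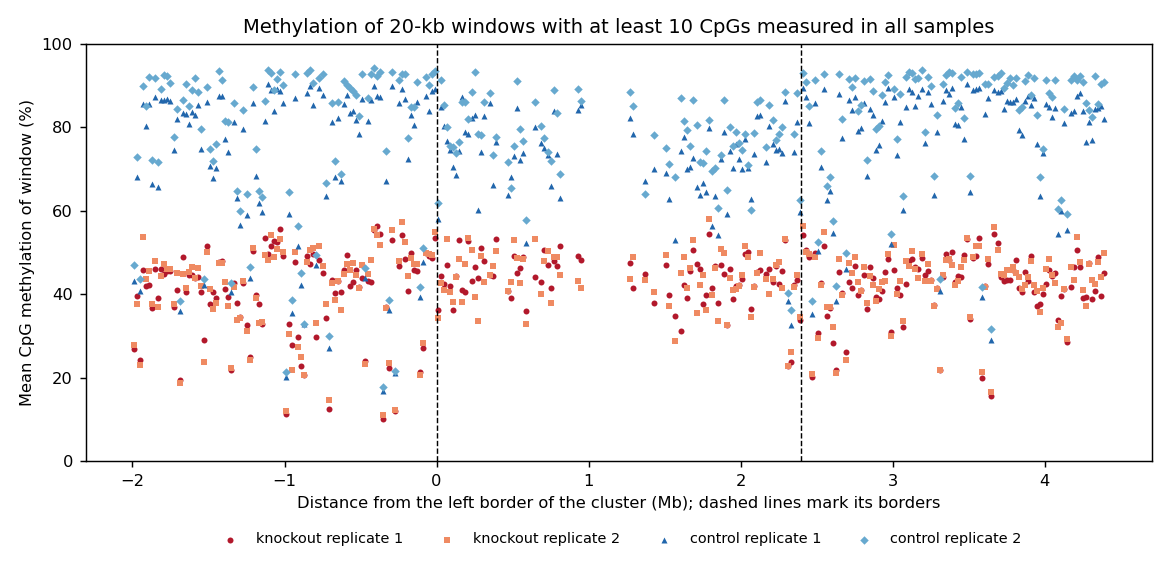
Mean CpG methylation (%) of each measured 20-kb window in each of the 4 samples, by distance from the left border of the cluster (Mb). The medians over windows were 44.3% and 43.7% inside the dashed borders and 43.2% and 44.2% outside them in knockout samples (reds), and 73.7% and 78.2% inside and 83.1% and 88.0% outside in control samples (blues).

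Array windows rested on fewer CpGs and varied more between samples. Measured windows held a median of 23 CpGs in the array, 52.5 in the whole cluster and 146 in the flanks. The median SD between samples of a group was 2.53 points in the knockouts and 4.31 points in the controls of array windows, against 1.10 and 3.05 points in the flanks. Among the cluster windows, the 41 with fewer than 52.5 CpGs had a median SD of 2.72 points in the knockouts and 4.38 points in the controls. The 41 with more CpGs had 1.09 and 2.67 points. Over the 82 windows, Spearman's rho between CpG number and the SD was -0.59 in the knockouts and -0.37 in the controls, and these windows share the same 4 libraries. The control level of a window and its share of cytosines with values in all samples had a rho of -0.22.

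Most single cytosines stood at intermediate levels in the knockouts. In the cluster 2.62% ± 0.464 of cytosines were at 80% or more in the knockouts, against 52.0% ± 7.33 in the controls (SD, n = 2 each). Those between 20% and 80% made up 83.7% ± 0.352 in the knockouts and 40.3% ± 7.32 in the controls. Those at 20% or less made up 13.7% ± 0.111 in the knockouts and 7.64% ± 0.009 in the controls. In the flanks 2.26% of cytosines in the knockouts, against 67.5% in the controls, were at 80% or more, and 20.9% in the knockouts, against 16.1% in the controls, were at 20% or less. The controls thus held more cytosines at both ends in the flanks than in the cluster. The array had few low cytosines in either group, with 8.37% at 20% or less in the knockouts and 1.63% in the controls, and its intermediate share was 87.4% in the knockouts and 49.1% in the controls.

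**Figure D4:**
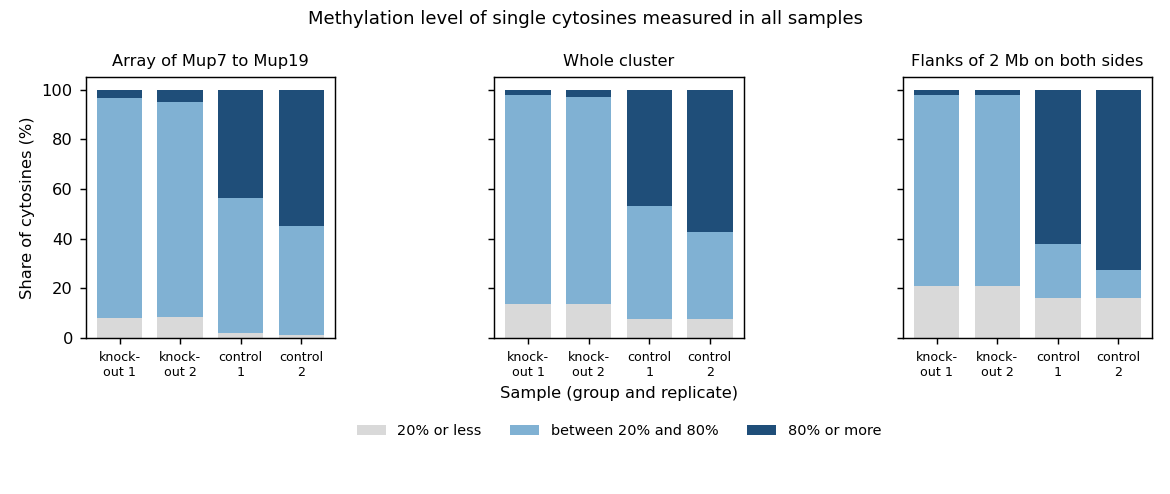
Share of cytosines (%) at 80% or more (dark blue), between 20% and 80% (light blue) and at 20% or less (grey), in each knockout and control sample, for the array, the whole cluster and the flanks. The intermediate class fills most of every knockout bar, and the controls of the cluster hold more intermediate and fewer low cytosines than those of the flanks.

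Among the 22 Mup genes, 11 had at least 5 CpGs measured in all samples over the span from start to end, and all 11 were lower in the knockouts. Of all 38879 gene spans, 86% were called lower and 0.448% higher, so a full count of lower genes is near the background. Both knockouts lay below both controls in all 11, against 92.7% of all spans. The median level of the 11 genes was 43.3% in knockouts and 79.1% in controls, with a median difference of -35.6 points (range -45.6 to -27.3) and 54.7% retained. Over all spans the medians were 38.6% in knockouts, 71.6% in controls, -31.8 points and 55.1% retained. The 11 genes that were not tested all lie in the array, where 5 of 16 were tested, against 6 of 6 outside it. At 3 array genes (Mup12, Mup22 and Mup13) no cytosine had a value in all samples.

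Mup20 encodes darcin, a male pheromone protein that draws females to a scent mark and that they learn to remember. Its annotated span, chr4:62011337-62054143, is long, encloses Mup-ps21, and had 92 CpGs measured in all samples. The level was 45.7% and 45.4% in the knockouts, against 81.6% and 84.9% in the controls. The groups lay far apart, and this was the highest control mean of the 5 named genes. The means were 45.5% ± 0.241 in knockouts and 83.2% ± 2.34 in controls (SD, n = 2 each). The difference was -37.7 points (limma adjusted p = 1.79e-14).

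Mup3, another outlying gene of the right end, has been linked with Mup20 to aggression between male mice. Over chr4:62083476-62087317, with 10 CpGs measured, its level was 43.1% and 39.3% in the knockouts, against 75.2% and 82.9% in the controls. The difference of -37.9 points (limma adjusted p = 5.70e-22) was close to that of Mup20. At its promoter, printed above, 3 of 4 cytosines were measured, with 35.8% and 40.5% in the knockouts against 91.1% and 86.2% in the controls.

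Mup4 is made in nasal and lachrymal glands and lies first in the cluster, at chr4:59956804-59960667. With 16 CpGs measured, its span had 43.9% and 42.8% in the knockouts, against 71.2% and 81.6% in the controls. The difference was -33.0 points (limma adjusted p = 8.24e-18). Its promoter stood below its span in all samples. All 6 promoter cytosines were measured, and their mean was 13.0% and 19.5% in the knockouts, against 39.3% and 44.5% in the controls.

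Within that promoter the CpGs differed by position. The 2 cytosines of the CG inside the gene, 29 bases after the start, had 35.7% and 55.0% on one strand and 13.3% and 28.6% on the other in the knockouts. In the controls they had 76.1% and 88.1%, and 65.0% and 85.7%. The CG of the shared run CCCATACGGGAAGA, 66 bases before the start, had 2.50% and 15.7% on one strand and 9.09% and 1.45% on the other in the knockouts. In the controls it had 32.4% and 31.5%, and 19.8% and 16.3%. The run stood higher at Mup2 and Mup3, the other genes where both of its cytosines were measured in all samples. At Mup2 it had 31.3% and 38.5%, and 41.7% and 36.4%, in the knockouts, against 86.7% and 92.9%, and 81.8% and 100%, in the controls. At Mup3 it had 44.4% and 33.3%, and 20% and 45.5%, in the knockouts, against 86.2% and 69.2%, and 87.0% and 94.1%, in the controls. At Mup7 one strand had 45% and 40% in the knockouts against 76.9% and 89.5% in the controls, and the other had 0% in knockout replicate 1, no value in knockout replicate 2, and 20% and 40% in the controls. Promoter windows hold fewer than 5 CpGs and were not tested.

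Mup5 is a salivary gland member at chr4:61831319-61858043, with the most CpGs of any Mup gene, 137 measured in all samples. Its span had 39.7% and 40.7% in the knockouts, against 70.4% and 76.9% in the controls. The difference was -33.5 points (limma adjusted p = 2.06e-22), and the 2 knockouts were within 1 point of each other.

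Mup18 belongs to the array, at chr4:61670177-61674132. Of its 35 listed cytosines, 14 in 10 CpGs were measured in all samples. The level was 40.4% and 40.002% in the knockouts, against 65.4% and 72.7% in the controls. This was the lowest control mean among the 11 tested Mup genes, and the difference was -28.8 points (limma adjusted p = 1.23e-19). At its promoter 2 of 4 cytosines were listed, on a single strand. Knockout replicate 1 had a value at neither. Knockout replicate 2 had 64.29% and 61.5% at the 2 sites, control replicate 1 had 55.6% and 38.9%, and control replicate 2 had 63.6% and 90.9%.

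Some of the other tested Mup genes varied more between replicates. Mup8, with 7 CpGs, showed the largest difference of the 11, with 48.2% and 39.1% in the knockouts against 89.2% and 89.3% in the controls. Mup21, with 15 CpGs, showed the smallest, with 43.0% and 53.5% in the knockouts against 69.0% and 82.0% in the controls. Mup9, with 5 CpGs, had the widest gap between knockouts, at 37.4% and 55.3%, against 82.1% and 92.0% in the controls. With each span tested on its own spread, 82.1% of all gene spans were called lower. Mup9 and Mup21 were then no longer called (limma adjusted p = 0.0735 and 0.105), and the 5 named genes remained called, with adjusted p from 0.0158 (Mup20) to 0.0434 (Mup4). Mup6, Mup11 and Mup17 had differences of -31.6, -35.6 and -42.0 points.

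**Figure D5:**
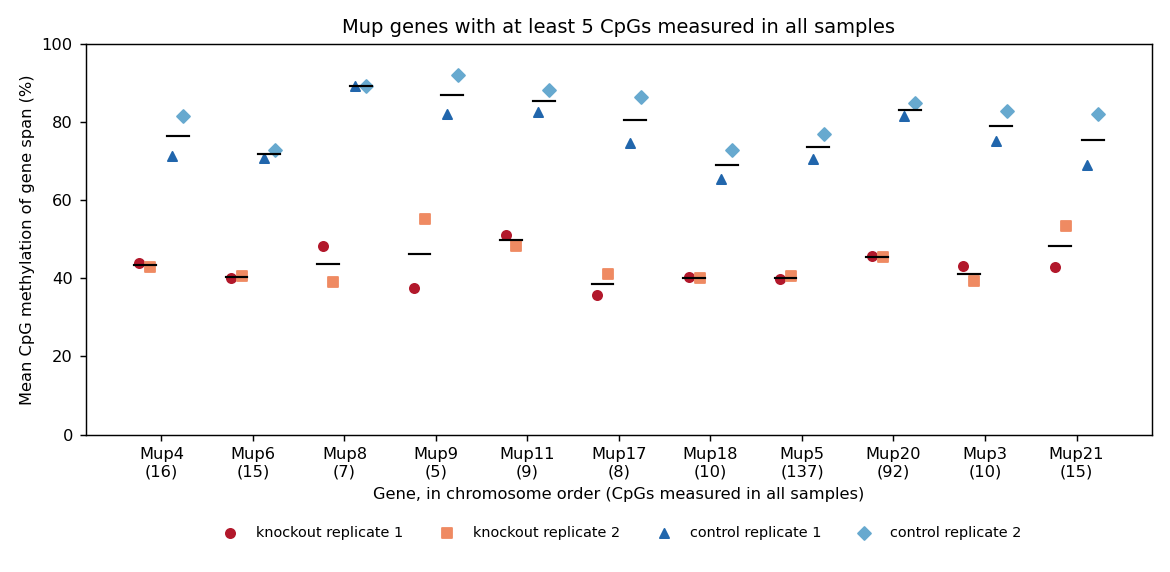
Mean CpG methylation (%) of the span of each of the 11 tested Mup genes in each sample, in chromosome order, with the number of CpGs measured in brackets and group means as bars. Knockout values lie between 35.8% and 55.3% and control values between 65.4% and 92.0%, without overlap.

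Of the 22 Mup-ps symbols, 11 were tested and all 11 were lower, which is near the 86% of all gene spans. The tested ones include the 3 that are not annotated as pseudogenes. Their median difference was -35.0 points (range -42.8 to -20.2), with 56.4% retained. At 3 of them (Mup-ps6, Mup-ps24 and Mup-ps5) no cytosine was listed. Some spans enclose a Mup gene, as Mup-ps1 encloses Mup7 and Mup-ps12 encloses Mup16. Mup-ps26, a short fragment, had 59.96% and 41.7% in the knockouts against 72.3% and 74.0% in the controls, and its call was lost on its own spread (limma adjusted p = 0.132) and without knockout replicate 2 (adjusted p = 0.116), control replicate 1 (0.0792) or control replicate 2 (0.100).

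The genes at the borders were not all like the Mup genes. On the left, Slc46a2, a transporter gene, had 31.4% and 28.5% in the knockouts against 48.7% and 51.4% in the controls (-20.04 points). On the right, Zfp37, a zinc finger gene known for its testis transcript, had 23.5% and 24.9% in the knockouts against 40.5% and 42.7% in the controls (-17.4 points). Both were called lower (limma adjusted p = 8.43e-18 and 3.77e-16). Next to Zfp37, Gm30451 had 4.32% and 1.15% in the knockouts and 3.44% and 0.568% in the controls, and LOC108168693 had 17.9% and 17.4% in the knockouts and 15.2% and 17.0% in the controls. Neither passed the test (limma adjusted p = 0.738 and 0.381), and at both the level was already low in the controls. The largest difference of a non-Mup gene inside the interval was -40.2 points at Gm12909. Left of Slc46a2, Snx30 and Gm12543 differed by -34.0 and -40.2 points.

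Other lipocalins were set beside the Mup genes as relatives of the same protein family. Of 26 lipocalin genes outside the cluster, 22 were tested and 22 were lower, against 86% of all gene spans. Their medians were 47.0% in knockouts and 89.3% in controls, a median difference of -41.8 points (range -47.4 to -15.1) with 53.0% retained. Apom, which carries a lipid signal in plasma, had the largest difference. Rbp4, the plasma carrier of vitamin A, had the smallest, with 19.97% and 20.9% in the knockouts against 34.7% and 36.4% in the controls. Orm1, an acute-phase protein gene of the right flank, had 42.7% and 48.2% in the knockouts against 83.3% and 92.7% in the controls.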

How the data were processed

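CpG methylation was measured by whole-genome bisulfite sequencing (PBAT) in 2 knockout and 2 control samples. The authors deposited the methylation level of each CpG cytosine as a percent per sample, both strands apart, with empty cells where a sample had no value. The title names a minimum of 10 reads per value. The last line of the table was cut short and was left out. Gene spans on chromosome X that start beyond its last listed position were not used. Shares over the whole table therefore cover listed positions only. The genome build was mm10, per the submitters' processing notes. For aligner and caller: not given in the sources used here. Depth is unknown, so cytosines weighed equally, without intervals.

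Region levels were means over cytosines with values in all samples. Windows needed 10 CpGs and gene spans 5. Regions were tested over the whole table with limma 3.58.1 (R 4.3.3, tables read by its package data.table, version 1.17.8), with a trended robust prior, on the log2 ratio of methylated to unmethylated fraction (0.01 added to both). Calls needed a Benjamini-Hochberg adjusted p under 0.05 and 10 points. Prior degrees of freedom were infinite for 99.5% of windows and 88.2% of gene spans, so their p-values rest on a pooled spread. This procedure was tested on simulated data with planted losses. There most regions had no loss and all had the same spread, unlike in these data. The simulation therefore does not bear on regions with few CpGs. Per-sample values were tested by exact permutation (two-sided). Gene positions and promoter sequences came from RefSeq (GRCm38.p6). Promoter pairs were aligned end-free with Biopython 1.88. Tables were handled with pandas 2.3.3, pyarrow 21.0.0, NumPy 2.4.6 and SciPy 1.17.1 in Python 3.11.15, and plots with Matplotlib 3.10.9.

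The interval, its members, the gene lists and the tests were chosen with earlier results of these data known. Named are every Mup gene or pseudogene symbol (5 in full, with others passing the CpG minimum), the 3 tested genes nearest on each side, the extremes of the interval and examples of the lipocalin list.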

Additional observations from a re-analysis of the deposited data

How the results depend on the processing

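The windows called lower numbered 129 of 130 with 10-kb windows and 39 of 39 with 50-kb windows, against 81 of 82 with 20-kb windows. These counts move with the number of windows tested. With at least 10 CpGs per gene, 7 Mup genes were tested and 7 were lower. With spans extended by 2000 bp on both sides, 17 Mup-ps symbols were tested and 17 were lower. The share of cluster cytosines with values in all samples was 50.4% between the first and the last Mup gene, and that of the flanks was 62.7% over 5 Mb on each side. With the spread pooled over regions of similar CpG number, chosen after seeing the data, 81 windows, 11 Mup genes and 11 Mup-ps symbols were lower. The limma adjusted p was then larger at Mup4, Mup18 and Mup3 (5.19e-07, 3.20e-04 and 3.94e-07). It was smaller at Mup5 and Mup20 (1.33e-31 and 3.49e-34), so the size of these p-values depended on how the spread was pooled. With 1 sample left out in turn, where the lone sample of a group is assumed to vary like the other group, windows called lower numbered 81 to 82, Mup genes 11 to 11 and Mup-ps symbols 10 to 11. The difference of the cluster mean then ranged from -31.9 to -27.6 points, and its difference against the flanks from 4.23 to 4.49 points. Of 324 values of single Mup genes and symbols under these alternatives, 316 kept direction and call, 8 lost the call and 0 changed sign; 5 of the 8 came from testing each span on its own spread and the others from leaving out a sample at Mup-ps26; the cause was not tested.

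The replicate numbers 1 and 2 occur in both groups, and the labels do not say that they mark shared animals or batches. Deviations of same-numbered samples had r = 0.063 over 120249 windows and -0.143 over the 82 cluster windows. With the replicate number as a block, 81 windows, 11 Mup genes and 11 Mup-ps symbols were called lower, and the exact permutation p of the cluster mean (-29.8 points) and of its difference against the flanks (4.36 points) was 0.5, the smallest that 2 pairs allow. Unknown read depth limits single cytosines most, and few CpGs limit the array.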
